A study of Mus musculus with 6 samples.

Results

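The blood cell and microglia microRNAs on the card were mmu-miR-142-3p, mmu-miR-142-5p, mmu-miR-150, mmu-miR-223, mmu-miR-342-3p, mmu-miR-342-5p and mmu-miR-451, written below without the prefix for mouse. They were taken by name from the table of raw threshold cycles, as the mouse assays whose ID, once its assay number was removed, equalled one of these names. All 7 were found among 381 assays, and all 7 were among the 281 mouse and rat microRNAs that were detected in every library and therefore tested. Each library was made from the right dentate gyrus of 1 male C57/Black6J mouse of 6 to 8 weeks, with 3 mice that received saline and 3 that went through status epilepticus induced by repeated intraperitoneal kainic acid (KA-SE), all dissected 72 h later. KA-SE mice were included only after long class IV to V seizures. Dentate gyri were dissected after decapitation, and no perfusion is described, so the tissue can hold blood as well as brain cells. Total RNA of each mouse (800 ng) was read on a TaqMan card of its own. The value of an assay is the threshold cycle (Ct), reached when its PCR signal passes the detection level, and RNA that is more abundant reaches it earlier.

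These microRNAs are known from cells of the blood lineage. miR-142 is made throughout the haematopoietic lineage, microglia included, miR-150 is a microRNA of mature lymphocytes that targets the transcription factor Myb, and miR-223 is typical of granulocytes and monocytes. miR-342 is encoded within Evl, the gene of an actin regulator, and is found in leukocytes and macrophages. miR-451 is the abundant microRNA of red cells and their precursors. The brain holds such cells as resident microglia and as blood in its vessels, and a dissected tissue does not show which of its cells a microRNA came from.

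The sequences of the members are shown because each carries its own seed, bases 2 to 8, through which a microRNA recognises its targets. They come from RefSeq on GRCm38.p6, where 6 of 7 members were matched, 5′ to 3′ with the seed in capitals.
miR-142-3p: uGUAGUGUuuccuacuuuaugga
miR-142-5p: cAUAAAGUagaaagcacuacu
miR-223: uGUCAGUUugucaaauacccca
miR-342-3p: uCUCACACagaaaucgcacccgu
miR-342-5p: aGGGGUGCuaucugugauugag
miR-451: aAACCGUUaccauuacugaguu
The 6 seeds were all different, and 0 of the other mature microRNAs among the 1738 in the table had any of them. The members are grouped by cell type and not by seed.

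The precursors are shown because 2 pairs of members are the arms of 1 hairpin each, with the arms in capitals, while miR-451 has no partner arm.
Mir142 (chr11:87756864-87756927, plus strand): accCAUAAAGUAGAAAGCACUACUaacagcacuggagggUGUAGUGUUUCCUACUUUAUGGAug
Mir342 (chr12:108658620-108658718, plus strand): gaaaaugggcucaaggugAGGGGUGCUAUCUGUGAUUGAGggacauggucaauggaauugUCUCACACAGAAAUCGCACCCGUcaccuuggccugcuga
Mir451a (chr11:78073170-78073241, plus strand): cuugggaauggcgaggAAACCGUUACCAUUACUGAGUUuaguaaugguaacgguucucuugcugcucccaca
The mature miR-451 occupies bases 17 to 38 of its hairpin of 72 bases and so runs through the loop. It is known to be matured by Ago2 without Dicer. In the same assembly Mir342 lies within the span of Evl, Mir223 lies on the X chromosome within that of the long noncoding RNA gene F630028O10Rik, and Mir451a lies 100 bases from Mir144. Mir142 and Mir451a each overlap a second microRNA gene, Mir142b and Mir451b.

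Facts of the whole card touch these microRNAs in the following ways. The median Ct of the 281 tested microRNAs was 25.9 in saline replicate 2 and 22.8 to 23.6 in the other 5 libraries. Against the mean of saline replicates 1 and 3, the control RNAs of saline replicate 2 were later by 0.603 to 0.86 cycles only. The median delay of the tested microRNAs on that measure was 2.23 cycles. The plant assay ath-miR159a, a negative control, gave no amplification (Ct 40) in 3 libraries and a Ct of 18.8 to 21.7 in the other 3. The liver microRNA miR-122, which the dentate gyrus should lack, gave a Ct of 24.8 to 31.1 in all 6 libraries, and the heart microRNA miR-208b a Ct of 26.1 to 32.1 in 5 of them. Amplification in this range thus does not by itself show the cell type of a microRNA. The neuronal microRNAs miR-9, miR-132, miR-138, miR-128a and miR-124 had mean Ct values of 15.1, 15.9, 16.6, 19.1 and 19.9. They were listed here as neuronal, but how specific each is to neurons was not tested. They do not tell the dentate gyrus from other brain tissue.

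All 7 members had a Ct below 35 in every library, the highest being 30.9, so that none was kept or dropped through 1 group alone. By mean Ct over the 6 libraries the order was miR-150, miR-342-3p, miR-223, miR-142-3p, miR-451, miR-342-5p and miR-142-5p. Assays can differ in how well they amplify, so this is an order of signal and not strictly of abundance. miR-150 and miR-342-3p, with mean Ct values of 17.8 and 18.8, ranked 20th and 32nd of 281, and miR-150 came before miR-342-3p in 6 of 6 libraries by 0.772 to 1.06 cycles. The gap from miR-342-3p to the next member, miR-223, was 4.91 to 6.25 cycles. miR-223, miR-142-3p, miR-451 and miR-342-5p followed with mean Ct values of 24.0, 24.0, 24.99 and 25.6, and the order of these neighbours changed between libraries. miR-142-3p came after miR-223 in 2 of 6 libraries only, while miR-451 came after miR-142-3p and miR-342-5p after miR-451 in 5 of 6 each. miR-142-5p, with a mean Ct of 27.9, was the last in every library and ranked 242nd.

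**Figure D1:**
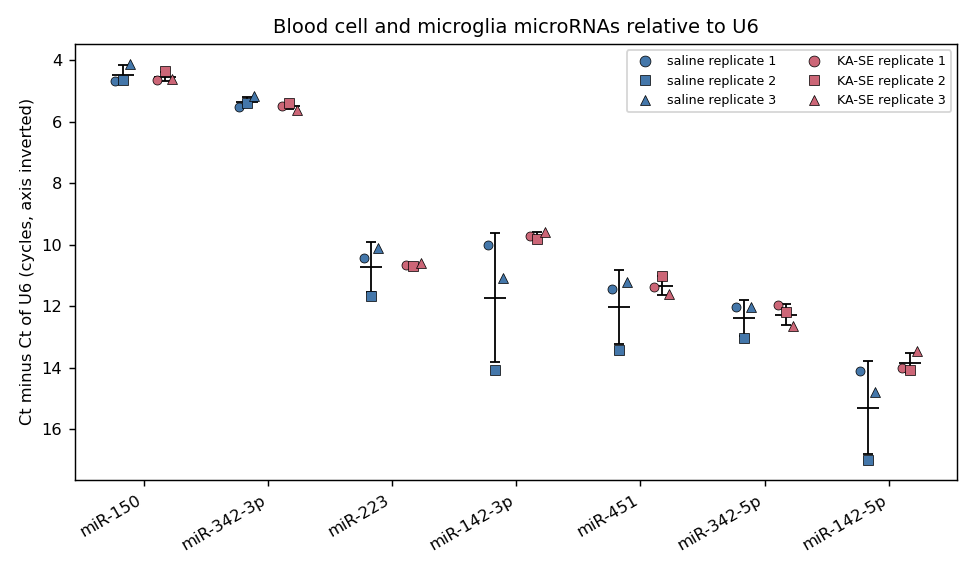
Ct of each member minus the Ct of U6 in the same library (cycles, vertical axis inverted so that higher means more RNA), for the 3 saline (blue) and 3 KA-SE (red) mice, with the mean and SD of each group in black and a symbol shape per replicate. miR-150 and miR-342-3p lie 4.12 to 5.61 cycles after U6 in all mice, and for both arms of miR-142 every KA-SE mouse lies above every saline mouse.

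After KA-SE no member passed the test against saline, and the members did not move as a group. The level compared was the Ct of the small nuclear RNA U6 minus the Ct of the microRNA, which is on a log2 scale where PCR doubles its product in every cycle. The test was limma over 281 microRNAs, and a microRNA was called where it changed by 1.5-fold or more with an adjusted p under 0.05. It called 0 of 7 members and 0 of all microRNAs tested (0%). At an unadjusted p under 0.05 it gave 0 members and 8 microRNAs in all (2.85%), and the methods' t-test gave 6. A higher level after KA-SE was measured for 5 of 7 members, against 87.2% of all microRNAs tested. The median log2 fold change was 0.10 for the members and 0.62 for all tested, and without saline replicate 2 it was -0.14 for the members and 0.12 for all tested. Without that library 3 of 7 members were higher, against 62.6% of all tested, and 1 member, miR-142-3p, had an unadjusted p under 0.05, against 8.54%. Both arms of miR-142 lay high in the order of fold changes and miR-451 lay near its middle, with 56.6% of all tested below it. miR-342-3p, miR-150, miR-223 and miR-342-5p lay low, with 8.54%, 10.7%, 15.3% and 16.7% of all tested below them. In such tissue, fewer cells of a type and less RNA per cell cannot be told apart.

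miR-142-3p, the leukocyte and microglia microRNA, came 10.03, 14.07 and 11.08 cycles after U6 in saline replicates 1, 2 and 3 and 9.72, 9.81 and 9.58 cycles after U6 in KA-SE replicates 1, 2 and 3. The 3 KA-SE mice lay within a narrow band, and each was higher than each saline mouse, the nearest being saline replicate 1. Levels in which all KA-SE mice were above all saline mice were found for 2 of 7 members, the arms of miR-142, and for 19.2% of all microRNAs tested. Levels in which all KA-SE mice were below all saline mice were found for 0 members and for 1.42% of all tested. The log2 fold change of miR-142-3p was 2.02, or 4.05-fold (standard error 0.97, 95% interval -0.26 to 4.30, limma adjusted p = 0.556), and 97.5% of the microRNAs tested had a lower one. Without saline replicate 2 it was 0.85, or 1.80-fold (standard error 0.34, 95% interval 0.00257 to 1.70, limma adjusted p = 0.509). Its groups were still apart, as they were for 2 of 7 members in this direction and 19.6% of all tested. Over another reference, the mean Ct of the control RNAs snoRNA135 and snoRNA202, the levels overlapped, at -5.51, -9.87 and -7.13 in saline replicates and at -5.66, -5.81 and -5.30 in KA-SE replicates, and the log2 fold change was 1.91.

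miR-142-5p, from the other arm of that hairpin, came 14.12, 17.004 and 14.79 cycles after U6 in the saline replicates and 14.00, 14.07 and 13.47 cycles after U6 in the KA-SE replicates. The groups were again apart, with saline replicate 1 just below KA-SE replicate 2, but they overlapped over the snoRNAs (log2 fold change 1.35), over the global mean, in raw Ct and in the authors' deposited normalized table. The log2 fold change was 1.46 (standard error 0.76, 95% interval -0.33 to 3.25, limma adjusted p = 0.556), and without saline replicate 2 it was 0.60 (limma adjusted p = 0.517). In the authors' deposited normalized table it was 0.18, because the normalized values of miR-142-5p differ from the raw Ct by another amount than those of most assays. Against the most common difference of each library, that amount was larger or smaller by 0 cycles in saline replicate 2, by -1.59 and -1.75 cycles in saline replicates 1 and 3 and by -2.30, -2.32 and -2.30 cycles in the KA-SE replicates.

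Some listed microRNAs of other cells had fold changes near that of miR-142-3p over the 6 libraries, and others had smaller ones. Among the smaller were those of miR-338-3p (log2 fold change 0.93) and of the neuronal microRNAs (0.40 to 1.42). The liver microRNA miR-122 had a log2 fold change over U6 of 2.05 (standard error 1.09, limma adjusted p = 0.556), or 0.72 without saline replicate 2, and the oligodendrocyte microRNA miR-219 had 1.96 (standard error 1.27, limma adjusted p = 0.556), or 0.43 without it. Over the 6 libraries the mouse microRNAs whose Ct followed that of miR-142-3p most closely were miR-665, miR-153 and miR-136, with an SD of the difference in Ct of 0.253, 0.263 and 0.278 cycles, against a median of 1.21 cycles over 261 other mouse microRNAs. The 3 closest to miR-142-5p were miR-19a, miR-27a and miR-449a, with 0.296, 0.312 and 0.335 cycles. None of these 6 is another member. These SDs describe 6 libraries of which saline replicate 2 differs most.

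**Figure D2:**
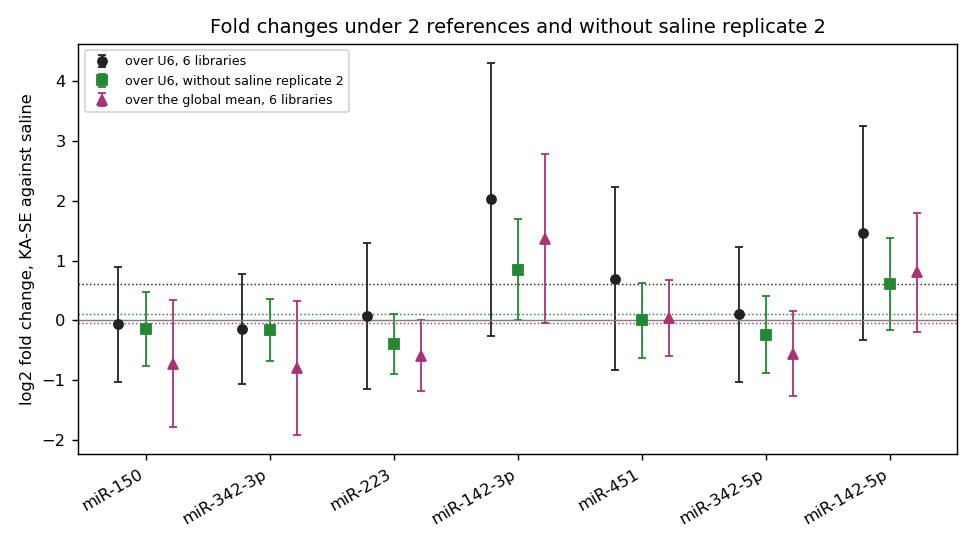
Log2 fold change of each member in KA-SE against saline mice with its 95% interval from limma, over U6 with 6 libraries (black), over U6 without saline replicate 2 (green) and over the global mean with 6 libraries (purple). Dotted lines mark the median of all 281 microRNAs under each setting, which was 0.62, 0.12 and -0.04, and all 3 values of miR-142-3p lie above them while those of miR-223 lie below.

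miR-150, known from lymphocytes, came 4.68, 4.64 and 4.12 cycles after U6 in the saline replicates. In the KA-SE replicates it came 4.64, 4.37 and 4.63 cycles after U6. The groups overlapped, and the log2 fold change was -0.06 (standard error 0.41, 95% interval -1.02 to 0.89, limma adjusted p = 0.930), or -0.14 without saline replicate 2. Its SD among saline mice, 0.311 cycles, was below that of all but 6.76% of the microRNAs tested, whose median was 0.982 cycles. The mouse microRNAs most alike to it in Ct were miR-125b-5p, miR-574-3p and miR-129-3p, with an SD of the difference of 0.0785, 0.0956 and 0.104 cycles. The mean Ct of miR-150, 17.8, was below those of the neuronal miR-128a (19.1) and miR-124 (19.9) and of miR-142-3p (24.0). It was above those of miR-9, miR-132 and miR-138. Which cells the miR-150 of this tissue came from was not tested.

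miR-223, the microRNA of granulocytes and monocytes, came 10.43, 11.66 and 10.10 cycles after U6 in the saline replicates and 10.65, 10.71 and 10.61 cycles after U6 in the KA-SE replicates. Saline replicates 1 and 3 were higher than all 3 KA-SE mice and saline replicate 2 was lower. The log2 fold change was 0.07 (standard error 0.52, 95% interval -1.15 to 1.29, limma adjusted p = 0.930), and it was -0.40 without saline replicate 2 (standard error 0.20, 95% interval -0.90 to 0.11, limma adjusted p = 0.517). Without that library all KA-SE mice were below both saline mice, which held for 1 of 7 members and 8.90% of all tested. The KA-SE mice differed among themselves with an SD of 0.0482 cycles, and 4.27% of the microRNAs tested had a smaller one. Closest to miR-223 in Ct were miR-222, miR-103 and let-7d, with an SD of the difference of 0.132, 0.140 and 0.154 cycles.

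miR-342-3p, the more abundant arm by signal, came 5.52, 5.41 and 5.18 cycles after U6 in the saline replicates and 5.51, 5.41 and 5.61 cycles after U6 in the KA-SE replicates. The groups overlapped over U6, and the log2 fold change was -0.14 (standard error 0.39, 95% interval -1.05 to 0.77, limma adjusted p = 0.827), or -0.16 without saline replicate 2. Over the snoRNAs (log2 fold change -0.25) and in the authors' deposited normalized table (-0.22), every KA-SE mouse was below every saline mouse for miR-342-3p. In each of these settings this held for 1 of 7 members and 8 of 281 microRNAs. Its SD among saline mice was 0.171 cycles, and 0.356% of the microRNAs tested had a smaller one. The other arm, miR-342-5p, came 12.04, 13.05 and 12.04 cycles after U6 in the saline replicates and 11.98, 12.18 and 12.66 cycles after U6 in the KA-SE replicates. Its groups also overlapped, and its log2 fold change was 0.10 (standard error 0.48, 95% interval -1.02 to 1.23, limma adjusted p = 0.903), or -0.23 without saline replicate 2. In the authors' deposited normalized table it was 0.50, since the normalized values of miR-342-5p depart from the most common difference to raw Ct by 0.219 and 0.221 cycles in saline replicates 1 and 3 and by 0.958 to 1.09 cycles in the other 4 libraries. There every KA-SE mouse was above every saline mouse, which held for 2 of 7 members and 58 of 281 microRNAs. The microRNAs most alike to miR-342-3p were miR-574-3p, miR-191 and the member miR-150, with an SD of the difference in Ct of 0.068, 0.108 and 0.119 cycles, and those most alike to miR-342-5p were miR-382, miR-331-3p and miR-100, with 0.1001, 0.127 and 0.148 cycles.

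miR-451, the red cell microRNA, came 11.45, 13.42 and 11.22 cycles after U6 in the saline replicates and 11.37, 11.01 and 11.62 cycles after U6 in the KA-SE replicates. Apart from saline replicate 2, which was the lowest, the mice of both groups were intermingled. The log2 fold change was 0.70 (standard error 0.65, 95% interval -0.83 to 2.23, limma adjusted p = 0.612), and without saline replicate 2 it was 0.01 (standard error 0.25, 95% interval -0.62 to 0.63, limma adjusted p = 0.991). Of the other erythroid microRNAs, miR-144 was not analysed here, and miR-486 had a Ct of 40, 40 and 31.1 in the saline replicates and of 29.0, 40 and 31.1 in the KA-SE replicates. miR-486 was thus detected in 1 saline and 2 KA-SE mice and was not tested. The microRNAs most alike to miR-451 in Ct were miR-350, miR-335-5p and miR-467a, with an SD of the difference of 0.119, 0.139 and 0.156 cycles.

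The members differed in how late they came in saline replicate 2, the library that stands apart. Against the mean of saline replicates 1 and 3, the delay was 0.79 cycles for miR-342-3p and 0.966 cycles for miR-150, close to the 0.603 to 0.86 cycles of the 5 control RNAs. It was 1.74 cycles for miR-342-5p, 2.13 for miR-223, 2.81 for miR-451, 3.28 for miR-142-5p and 4.24 for miR-142-3p, where the median over 281 microRNAs was 2.23 cycles. A smaller delay than that of miR-342-3p was found for 5.69% of microRNAs and a smaller one than that of miR-142-3p for 90.7%. Arms of the same hairpin were delayed unequally, by 0.79 and 1.74 cycles for miR-342. Across the 281 microRNAs, which are not independent of each other, the delay hardly followed the mean Ct of saline replicates 1 and 3 (Spearman rho 0.108).

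**Figure D3:**
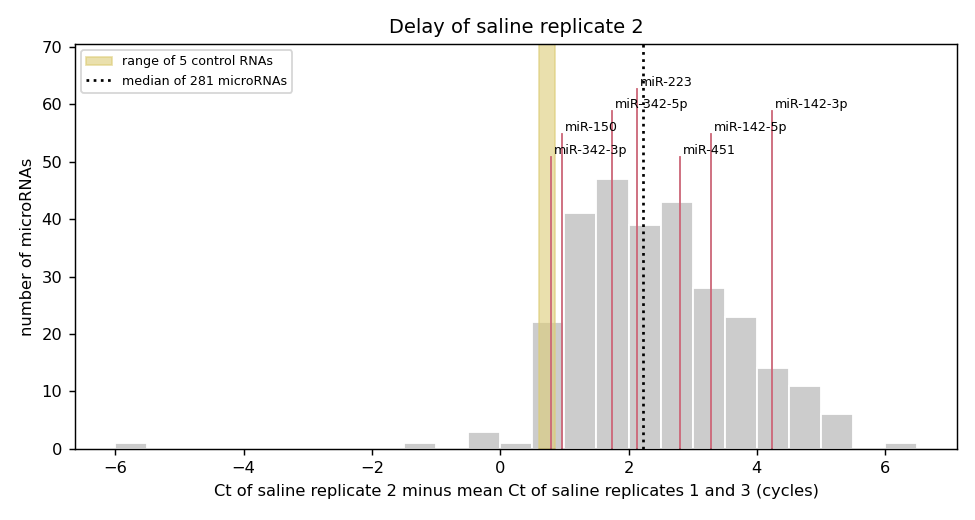
Number of tested microRNAs (grey, bins of 0.5 cycles) by the Ct of saline replicate 2 minus the mean Ct of saline replicates 1 and 3 (cycles), with each member as a red line, the range of 5 control RNAs as a yellow band and the median of 2.23 cycles as a dotted line. miR-342-3p and miR-150 lie in or beside the control band and miR-142-3p lies at 4.24 cycles.

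A reference made of microRNAs gave other values than U6. Relative to the global mean, the mean Ct of all 281 microRNAs in a library, 3 of 7 members were lower in every KA-SE mouse than in every saline mouse, which held for 12.1% of all microRNAs tested, and 0 of 7 were higher in every KA-SE mouse, which held for 12.8%. A higher mean level after KA-SE was measured for 3 of 7 members, against 45.9% of all tested, and 0 members had an unadjusted p under 0.05, against 8.90%. On this scale miR-223 stood at -0.23, 0.14 and -0.001 in the saline replicates and at -0.69, -0.74 and -0.42 in the KA-SE replicates, and its log2 fold change was -0.59 (standard error 0.25, 95% interval -1.18 to 0.01, limma adjusted p = 0.517). miR-342-5p stood at -1.85, -1.25 and -1.94 in saline replicates and at -2.02, -2.21 and -2.46 in KA-SE replicates, with a log2 fold change of -0.55 (limma adjusted p = 0.528). The other arm, miR-342-3p, was at 4.67, 6.39 and 4.91 in saline replicates and at 4.46, 4.56 and 4.58 in KA-SE replicates, with a log2 fold change of -0.80 (limma adjusted p = 0.528). None of the 3 passed the test. miR-150 had a log2 fold change of -0.72 and miR-451 of 0.04 on this scale, while miR-142-3p had 1.36 and miR-142-5p 0.80, both with overlapping groups. Without saline replicate 2, a setting chosen after the data were seen, the log2 fold changes over the global mean shrank to -0.26 for miR-342-3p, -0.25 for miR-150, -0.34 for miR-342-5p, 0.75 for miR-142-3p and 0.50 for miR-142-5p, and that of miR-223 was -0.50.

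Levels of a member relative to another in the same library need no reference RNA. For 4 such ratios an exact permutation test, two-sided, was run, and with 3 mice a group it cannot give a p below 0.1. The erythroid miR-451 relative to the myeloid miR-223 was -1.03, -1.75 and -1.12 cycles in the saline mice, against -0.71, -0.30 and -1.002 cycles in the KA-SE mice, taken as the Ct of miR-223 minus the Ct of miR-451. Every KA-SE mouse was higher than every saline mouse, if narrowly, with a difference of 0.63 cycles (exact permutation test, p = 0.1, adjusted over 4 ratios p = 0.4) and of 0.40 cycles without saline replicate 2. The arm ratio miR-142-3p to miR-142-5p was 4.09, 2.94 and 3.70 cycles in saline and 4.28, 4.26 and 3.88 cycles in KA-SE mice, and the groups overlapped (difference 0.56, exact permutation test, p = 0.2, adjusted p = 0.4, or 0.24 without saline replicate 2). In the authors' deposited normalized table, where miR-142-5p carries the offsets given above, this difference was 1.74 (exact permutation test, p = 0.1). The arm ratio miR-342-3p to miR-342-5p was 6.52, 7.64 and 6.86 cycles in saline and 6.47, 6.77 and 7.05 cycles in KA-SE mice (difference -0.24, exact permutation test, p = 0.6, adjusted p = 0.8). In the authors' table, with the offsets of miR-342-5p, the difference was -0.71 (exact permutation test, p = 0.1). The level of miR-150 relative to miR-223 was 5.74, 7.02 and 5.97 cycles in saline mice. In KA-SE mice it was 6.01, 6.34 and 5.99 cycles (difference -0.13, exact permutation test, p = 1, adjusted p = 1). Of all 21 pairs of members 6 had groups that did not overlap, or 28.6%, against 23.9% of the 39340 pairs of tested microRNAs. Among the 6, chosen here after their values were seen and given with no test, miR-142-3p relative to miR-223 was 0.40, -2.40 and -0.98 cycles in saline and 0.93, 0.90 and 1.03 cycles in KA-SE mice, so that miR-223 came first in saline replicates 2 and 3 and miR-142-3p in the other 4 libraries.

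**Figure D4:**
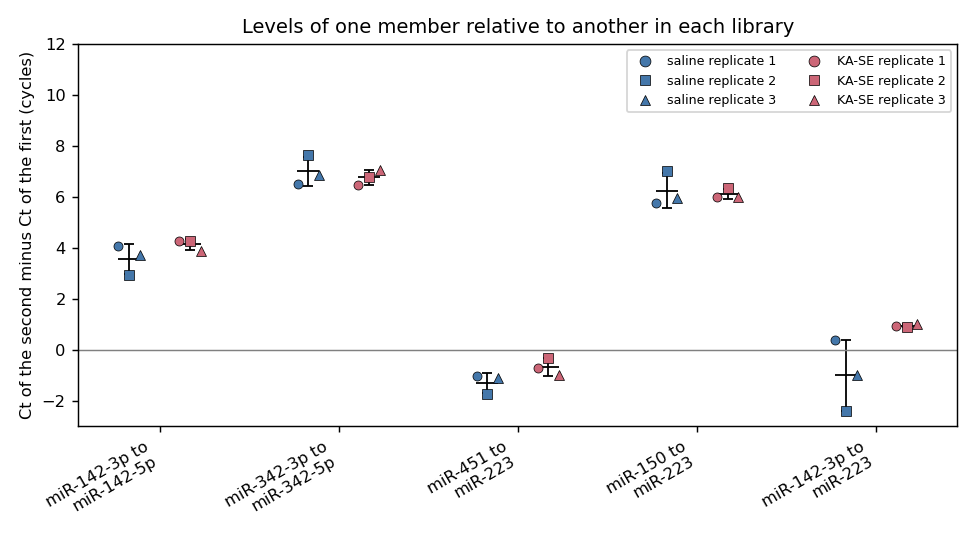
Ct of the second minus Ct of the first microRNA of each pair (cycles, higher means more of the first) in the 3 saline (blue) and 3 KA-SE (red) mice, with the mean and SD of each group in black. The 4 pairs on the left were compared with exact permutation tests, and miR-142-3p to miR-223 on the right is shown as a description. Groups are apart for miR-451 to miR-223 and for miR-142-3p to miR-223.

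Other microRNAs of leukocytes and immune activation were higher over U6 in 8 of 8 tested, against 87.2% of all microRNAs tested. Their median log2 fold change was 0.59 against 0.62 over all microRNAs, and 0 passed limma's test. Without saline replicate 2 their median was 0.11, with 4 of 8 higher, against 62.6% of all tested. The largest values among them were those of miR-21, which reactive astrocytes and activated leukocytes express, with 1.80 (standard error 0.83, limma adjusted p = 0.556), and of miR-155, which inflammatory signals induce in macrophages and microglia, with 1.15 (standard error 0.53, limma adjusted p = 0.556). Both were singled out once their values were known. Their Ct was 20.6, 24.4 and 20.9 for miR-21 and 27.0, 28.9 and 26.9 for miR-155 in the saline replicates, and 19.8, 20.2 and 19.96 and 26.2, 26.6 and 25.9 in the KA-SE replicates. Over U6 all KA-SE mice were above all saline mice for these 2 of the 8, against 19.2% of all microRNAs tested, and in raw Ct this held for 27 of 281. Without saline replicate 2 their log2 fold changes were 0.80 and 0.76. miR-222, the member of that list with the lowest mean Ct (16.4), had a log2 fold change of 0.10 (limma adjusted p = 0.903). The ninth of the list, miR-147, was not tested, since it had a Ct of 40 in saline replicate 2 and of 36.3 in saline replicate 3.

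Markers of other cells ran as follows beside the members. The 7 members lay on average 9.75 to 11.3 cycles after U6 in saline and 9.65 to 9.74 cycles after U6 in KA-SE mice. The 2 microRNAs of platelets and endothelium, miR-126-3p and miR-126-5p, lay 4.86 to 6.98 cycles after U6 in saline and 4.95 to 5.13 in KA-SE mice, with 2 of 2 higher and a median log2 fold change of 0.60, or -0.05 without saline replicate 2. miR-126-3p, the one of lower mean Ct (17.1), had a log2 fold change of 0.35 (limma adjusted p = 0.731). The 5 neuronal microRNAs lay 3.67 to 5.66 cycles after U6 in saline and 3.41 to 3.60 in KA-SE mice, with 5 of 5 higher and a median of 1.04, or 0.37 without saline replicate 2, and the 2 oligodendrocyte microRNAs, miR-219 and miR-338-3p, had a median of 1.44, or 0.26 without it. None of these passed limma's test. Their part in the values of the members was not tested.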

How the data were processed

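MicroRNAs were measured on TaqMan cards, 1 per mouse. The authors deposited 3 tables, with columns matched to samples by name and 0 columns left out: raw Ct (40 for no amplification), Ct relative to RNU6B per the methods, and fold changes over saline, which are the authors' own comparison and were not used. Instrument settings are not stated in the sources used here. The card has no assay named RNU6B, so the assay MammU6 served as reference. Levels were fitted with limma 3.58.1 in R 4.3.3 without a block, and p-values were adjusted (Benjamini-Hochberg) over the 281 mouse and rat microRNAs below Ct 35 in all 6 libraries. The script was tested on simulated data. Replicates are separate mice, and their number, not a read depth, limits the precision. Named were the 7 members, controls, listed markers and, for each member, the 3 mouse microRNAs with the smallest SD of the difference in Ct. Members and lists were chosen with earlier results of these data known. Alternatives were other references, detection limits and tests, each library left out in turn, a call without a fold change limit, and the replicate number as a block. Sequences were matched by current name (miR-451 as miR-451a, miR-142 as miR-142a). The deposited tables name no genome build.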

Additional observations from a re-analysis of the deposited data

How the results depend on the processing

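No member was called under any of the 17 settings run or without a fold change limit, and the smallest adjusted p of a member was 0.295. The log2 fold change of miR-142-3p stayed positive in all 17, from 0.75 to 2.87, as did that of miR-142-5p, from 0.18 to 2.05. Settings that changed only the detection limit, the test or the block cannot alter a log2 fold change. In these it was 2.02 and 1.46, as in the main fit, so its sign there was fixed in advance. With no detection limit 1 microRNA was called, miR-296-3p, which is no member. Members higher after KA-SE numbered 3 over the global mean, 3 over the snoRNAs, 2 over the global mean without saline replicate 2 (a setting chosen after seeing the data), 7 without a reference and 3 to 6 with 1 library left out, the 3 being without saline replicate 2. The share of all tested that was higher was 45.9% over the global mean, 82.2% over the snoRNAs and 92.5% without a reference. It was 51.2% over the global mean without saline replicate 2 and 62.6% to 92.5% with 1 library left out. The sign of small values turned. A change of reference moves the log2 fold changes of all microRNAs by the same amount, so small values can turn through it. Their median was 0.62 over U6, -0.04 over the global mean, 0.51 over the snoRNAs and 0.78 without a reference. Why the references differ was not tested. For miR-223 the log2 fold change was -0.59 over the global mean, -0.037 over the snoRNAs, -0.03 (-0.025) in the authors' normalized table and -0.50 over the global mean without saline replicate 2, and for miR-342-5p it was -0.55 over the global mean, -0.00 (-0.004) over the snoRNAs and -0.34 over the global mean without saline replicate 2, where that of miR-451 was -0.10. Without a reference it was 0.10 for miR-150 and 0.023 for miR-342-3p. With 1 library left out it ran from -0.16 to 0.11 for miR-150, from -0.40 to 0.39 for miR-223 and from -0.23 to 0.30 for miR-342-5p, the ratio miR-342-3p to miR-342-5p from -0.485 to 0.074 and miR-150 to miR-223 from -0.39 to 0.25, both positive without saline replicate 2 only.

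The replicate numbers were not taken as pairs, since same-numbered mice deviated together with correlations of 0.189, 0.236 and 0.047, although each library correlated best with its own number. The replicate block left 0 calls, moved the count at an unadjusted p under 0.05 from 8 to 33, and gave miR-142-3p an adjusted p of 0.304 in limma.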
